A study of Sinonovacula constricta with 9 samples.

Results

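From 246672 unigenes measured in whole juvenile razor clams, 142 were chosen for lower levels at 5 psu than at 15 and 25 psu. The way they were chosen kept their mean level at 25 psu within 1.5-fold of that at 15 psu, and it was above that at 15 psu for 102. A unigene is an assembled transcript sequence listed under its own identifier. The 142 were chosen by measured values. First, 15060 unigenes were kept as eligible, with a mean of at least 5 FPKM (fragments counted per length of unigene and per fragments sequenced in the library) over all 9 libraries and a summed count of at least 300, without the 100 with the largest summed counts. Those chosen had all 3 values at 5 psu below the other 6, a 15/5 ratio of mean FPKM (each + 0.1) of at least 2, and a 25/15 ratio above 0.667 and below 1.5. They are 0.943% of the eligible unigenes, of which 2104 had all 3 values at 5 psu below the other 6. Since this choice used the FPKM of every library, the levels and fold changes of the chosen unigenes are a description. Counts of calls from fits over all unigenes are given beside the share called in the background, and they support nothing about the 142.

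Sinonovacula constricta, the razor clam, is a bivalve that lives buried in estuarine mudflats. Whole juveniles aged 15 days after fertilization spent 6 h in water of low (5 psu), optimal (15 psu) or high (25 psu) salinity, the optimal one serving as control. The practical salinity unit (psu) roughly equals grams of salt in a kilogram of seawater. Total RNA of 3 libraries per salinity was sequenced, with 15897903 to 18427234 estimated counts per library. No label gives a strain or genotype, says how many animals went into a library, or says that the replicates were separate cultures, so spreads and standard errors cover these libraries and may be technical.

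Marine bivalves are osmoconformers, whose body fluid follows the salt content of the water. In diluted water their cells take up water and swell, and they regain volume by releasing ions and small organic osmolytes such as taurine and other free amino acids. In concentrated water the same osmolytes are taken up or made. A transcript lower in diluted water but little different in concentrated water would be one that does not follow salinity over its whole range. The 142 are not shown to be such transcripts. Their closeness at 25 psu was set by the choice, and 102 had a higher mean at 25 than at 15 psu. The sources used here give the 142 unigenes neither a gene name nor a sequence, so no function, protein or promoter is described, and the tissue was not checked against markers. In RNA from whole animals, fewer cells of a type and less RNA per cell cannot be told apart.

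The 142 unigenes together held 0.163, 0.184 and 0.185% of the counts in the libraries at 5 psu, 0.420, 0.450 and 0.417% at 15 psu, and 0.535, 0.520 and 0.521% at 25 psu. The libraries at 5 psu were the lowest, which the choice largely set. Those at 25 psu were above those at 15 psu without overlap. Means were 0.177% ± 0.0122, 0.429% ± 0.0182 and 0.526% ± 0.00836 (SD, n = 3 each) at 5, 15 and 25 psu. The median FPKM over the 142 unigenes was 4.96, 5.20 and 5.90 at 5 psu, 12.7, 13.7 and 13.3 at 15 psu, and 15.0, 14.7 and 15.3 at 25 psu. A few unigenes carried much of this sum: the 5 with the largest summed counts held 36.9% of it, and Cluster-8005.116573 by itself held 13.4%.

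**Figure D1:**
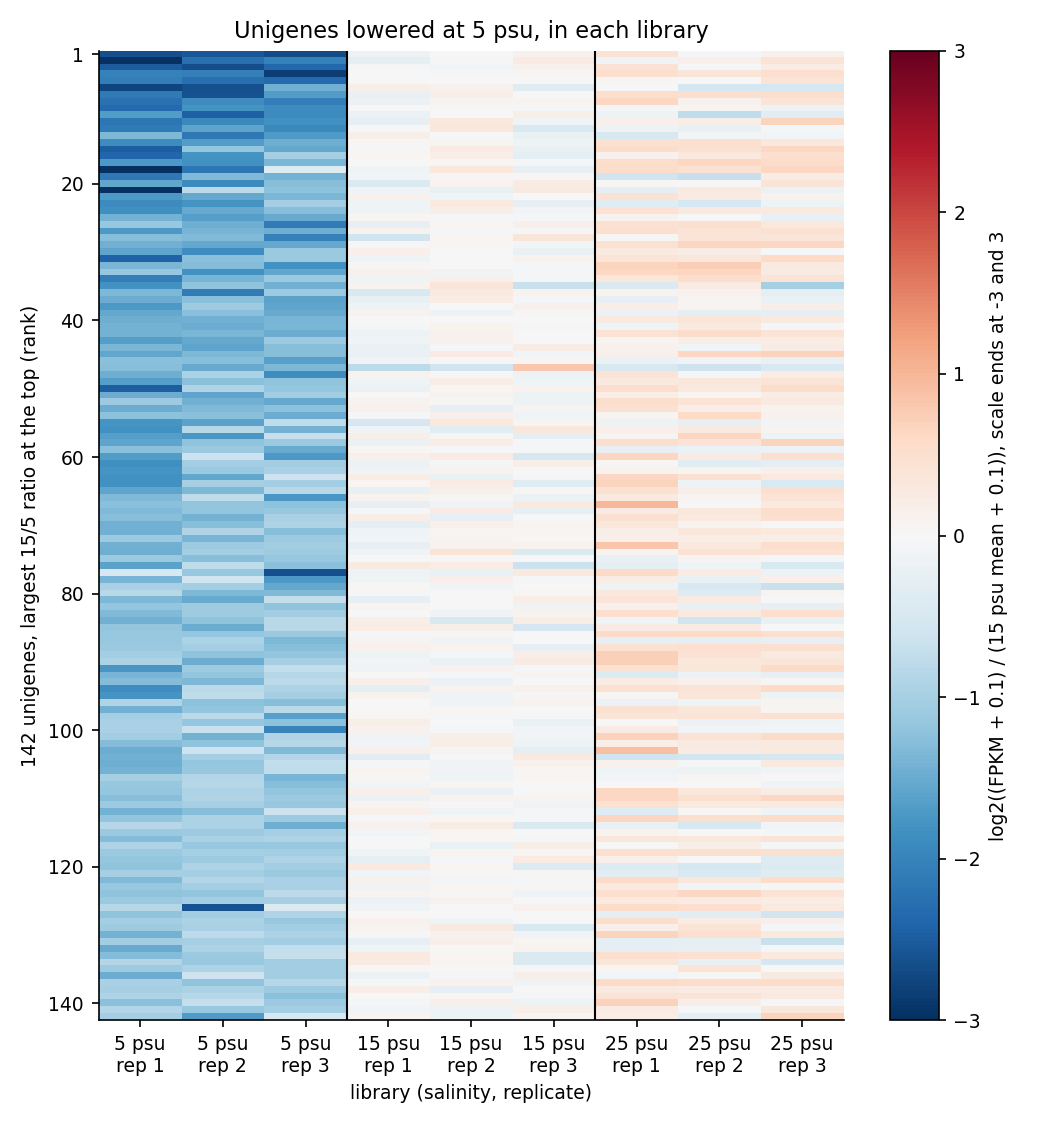
Level of each of the 142 unigenes in each of the 9 libraries, as log2 of FPKM + 0.1 over the 15 psu mean + 0.1, with unigenes ordered by their 15/5 ratio and libraries grouped by salinity. The 3 columns at 5 psu are blue throughout by the choice of unigenes, while at 25 psu 102 unigenes have a mean above that at 15 psu and 40 a mean below it.

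Falls were mostly close to the limit of 2-fold. The 15/5 ratio ran from 2.004 to 6.11 with a median of 2.28, and was under 2.5 for 88 unigenes, from 2.5 to under 3 for 36, from 3 to under 4 for 10, and at least 4 for 8. Over all eligible unigenes the median ratio was 1.02. In edgeR's fit over all 71915 tested unigenes, the median log2 fold change of the 142 at 5 against 15 psu was -1.19 (median SE 0.17), with values from -2.60 to -0.67, and the median over eligible unigenes was -0.00. That fit called 121 of the 142 lower (adjusted p under 0.05) and none higher, where it called 1.60% of all tested and 4.67% of tested eligible unigenes lower, and 1.26% and 3.03% higher. A 15/5 ratio of at least 2 was reached by 2.10% of eligible unigenes. The choice used this contrast, so the count supports nothing. The 21 not called had a median of 82 counts summed over the 3 libraries at 5 psu, against 345 for the 121.

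Cluster-8005.110785 had the largest fall. It held 6.01, 6.43 and 5.84 FPKM at 5 psu, 34.1, 37.5 and 41.6 FPKM at 15 psu, and 51.0, 37.1 and 41.4 FPKM at 25 psu. The 3 libraries at 5 psu lay close together and far below the rest, and those at 25 and 15 psu overlapped. Its log2 fold change was -2.60 (SE 0.13) at 5 against 15 psu and 0.23 (95% interval 0.00 to 0.46) at 25 against 15 psu.

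Cluster-8005.133448, next by ratio, held 0.50, 1.54 and 1.82 FPKM at 5 psu, 6.45, 7.52 and 9.24 FPKM at 15 psu, and 7.20, 8.57 and 10.3 FPKM at 25 psu. Its level at 5 psu rests on 39.4 counts over 3 libraries, of which replicate 1 held 4.8. The log2 fold change was -2.53 with an SE of 0.34, much wider than for Cluster-8005.110785.

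Cluster-8005.85240 had nearly the same profile as Cluster-8005.110785 at an implied effective length of 318 against 1877 nucleotides, the length that the deposited count and FPKM imply. It held 5.94, 5.26 and 6.59 FPKM at 5 psu, 32.5, 32.2 and 37.2 FPKM at 15 psu, and 46.1, 33.4 and 39.9 FPKM at 25 psu. In both, replicate 1 was the highest library at 25 psu. Cluster-8005.120628 held 9.03, 8.93 and 5.18 FPKM at 5 psu, 36.6, 36.2 and 38.7 FPKM at 15 psu, and 52.4, 47.8 and 52.9 FPKM at 25 psu. Here all libraries at 25 psu lay above all at 15 psu, with a 25/15 ratio of 1.37.

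Among the 10 with the largest ratios, Cluster-8005.96337 and Cluster-8005.133185 had the 25/15 ratios nearest 1, at 1.11 and 0.977. Cluster-8005.96337 held 3.76, 3.32 and 3.15 FPKM at 5 psu, 16.31, 16.23 and 15.97 FPKM at 15 psu, and 16.46, 16.40 and 21.2 FPKM at 25 psu. Every library at 25 psu thus lay above every one at 15 psu, by little in replicates 1 and 2. Cluster-8005.133185 held 1.95, 2.90 and 2.69 FPKM at 5 psu, 10.1, 10.6 and 10.1 FPKM at 15 psu, and 9.93, 10.8 and 9.24 FPKM at 25 psu. Its log2 fold change at 25 against 15 psu was 0.01, with a 95% interval of -0.24 to 0.25, which leaves out a change of 1.5-fold in either direction.

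Other unigenes among these 10 were less even. Cluster-8005.128076 held 4.73, 5.12 and 11.99 FPKM at 5 psu, 37.1, 35.6 and 25.2 FPKM at 15 psu, and 33.1, 22.6 and 22.6 FPKM at 25 psu. Replicate 3 at 5 psu was more than double its fellows, and the 25/15 ratio was 0.7996. Cluster-8005.94356 held 3.63, 2.11 and 3.10 FPKM at 5 psu, 10.5, 11.7 and 13.5 FPKM at 15 psu, and 10.7, 6.96 and 9.37 FPKM at 25 psu, a 25/15 ratio of 0.759. Cluster-8005.85001 and Cluster-8005.138291 went the other way at 25 psu, with ratios of 1.43 and 1.32, from 34.8 ± 0.604 and 31.4 ± 5.32 FPKM at 25 psu against 24.3 ± 3.49 and 23.8 ± 2.44 FPKM at 15 psu (SD, n = 3 each).

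**Figure D2:**
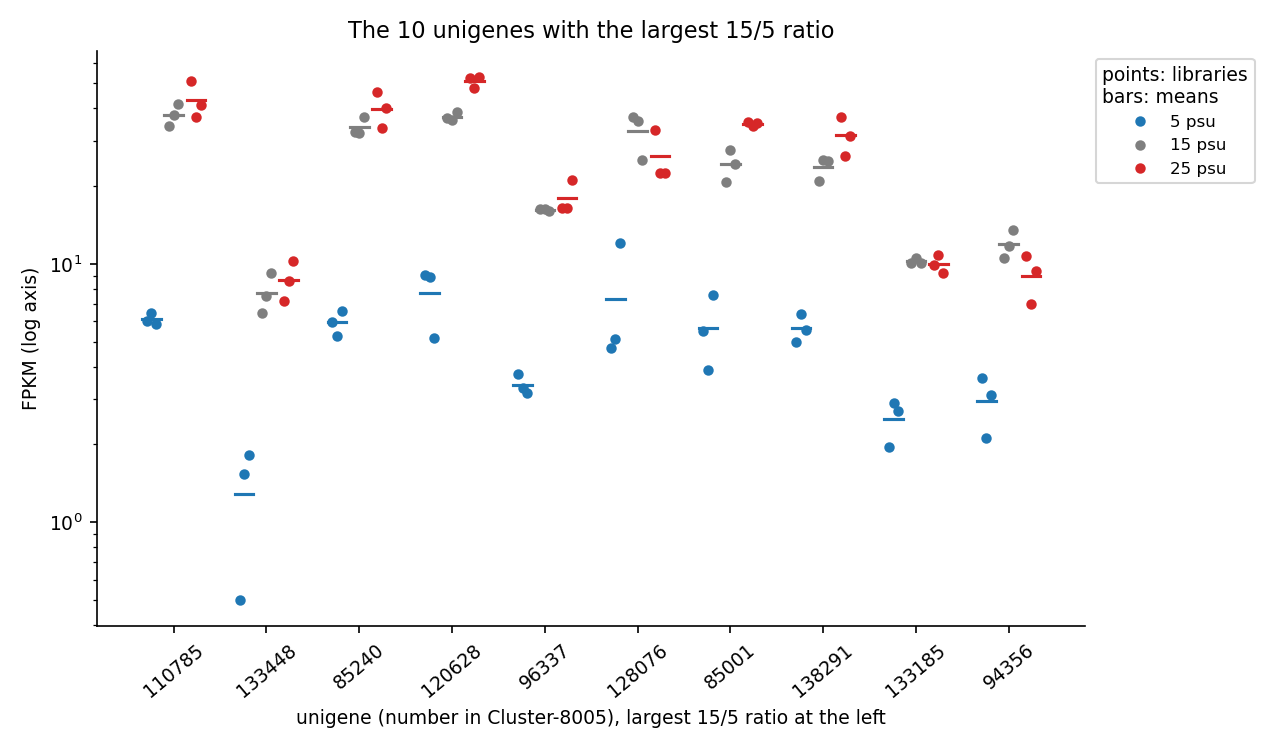
FPKM on a log axis in every library (points) with group means (bars) for the 10 unigenes with the largest 15/5 ratio, at 5, 15 and 25 psu. Points at 5 psu lie below all others for each unigene, and points at 15 and 25 psu overlap for 6 of the 10.

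The 8 most abundant of the 142 per length had 15/5 ratios from 2.09 to 3.896 in mean FPKM. Cluster-8005.111464 held 173.9, 172.2 and 178.1 FPKM at 5 psu, 373.8, 396.5 and 383.3 FPKM at 15 psu, and 575.5, 577.7 and 534.6 FPKM at 25 psu. The salinities formed 3 separate steps, and the log2 fold change was -1.11 (SE 0.07) at 5 against 15 psu and 0.58 (SE 0.07) at 25 against 15 psu. Cluster-8005.120389 held 122.8, 124.1 and 127.8 FPKM at 5 psu, 334.0, 339.9 and 337.1 FPKM at 15 psu, and 403.0, 433.3 and 404.7 FPKM at 25 psu. Within each salinity these 3 values lay within a few percent at 5 and 15 psu, and the step down to 5 psu was larger than the step up to 25 psu.

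Cluster-8005.107964, Cluster-8005.118232 and Cluster-8005.117115 showed the same order of the 3 salinities without overlap. They averaged 192.7 ± 26.6, 152.8 ± 8.64 and 89.3 ± 17.2 FPKM at 5 psu, 402.2 ± 14.9, 321.5 ± 21.6 and 257.4 ± 30.7 FPKM at 15 psu, and 511.6 ± 10.8, 407.5 ± 29.9 and 325.4 ± 20.3 FPKM at 25 psu (SD, n = 3 each). Cluster-8005.116107 held 5.95, 6.08 and 5.96 FPKM at 5 psu, the smallest coefficient of variation there (1.21%), 10.4, 13.7 and 12.8 FPKM at 15 psu, and 10.05, 10.04 and 7.75 FPKM at 25 psu, which put every library at 25 psu under every one at 15 psu. Cluster-8005.117116, at 19.02 ± 0.704 FPKM at 5 psu, 39.9 ± 2.19 FPKM at 15 psu and 40.5 ± 2.08 FPKM at 25 psu (SD, n = 3 each), had overlapping libraries at the higher salinities.

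Of the 8 with the highest mean FPKM, 3 have levels that the length term sets in part. Cluster-8005.94325 has the highest mean of the 142, 868.5 FPKM, but only 402 counts over 9 libraries, at an implied effective length of 2.84 nucleotides. It held 16, 24 and 23 counts at 5 psu, 74, 70 and 35 at 15 psu, and 73, 44 and 43 at 25 psu. On counts its 25/15 log2 fold change was -0.06 (95% interval -0.66 to 0.54), while its 25/15 ratio of mean FPKM was 1.42. Cluster-8005.93886 likewise has 27.6 nucleotides. Its 25/15 ratio was 1.33 in FPKM. Its log2 fold change on counts, where 0 and not 1 means no change, was 0.14 (95% interval -0.19 to 0.48).

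Cluster-8005.116573 held the most counts of the 142 and its implied length differed between libraries, from 1487 to 1730 nucleotides at 15 psu and from 2014 to 2514 at 5 psu. It held 72.6, 86.7 and 93.9 FPKM at 5 psu, 279.1, 407.0 and 300.9 FPKM at 15 psu, and 365.1, 372.4 and 524.3 FPKM at 25 psu. In CPM, counts scaled to library size with TMM factors and not to length, it averaged 195.3 ± 31.7 at 5 psu, 527.3 ± 64.0 at 15 psu and 819.0 ± 55.8 at 25 psu (SD, n = 3 each). The 15/5 ratio was thus 3.896 in FPKM and 2.70 in CPM, and the 25/15 ratio 1.28 and 1.55, outside the limit of 1.5.

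In all, 4 of the 142 had implied lengths that differed over 1.5-fold between libraries with at least 20 counts, where 0.903% of eligible unigenes did. Cluster-8005.121552 met the choice through such a difference. It held 3.44, 2.89 and 3.24 FPKM at 5 psu, 4.87, 5.52 and 14.9 FPKM at 15 psu, and 6.07, 5.48 and 6.14 FPKM at 25 psu. In control replicate 3 its implied length was 2434 nucleotides, against 6915 to 6939 in the other 8 libraries, while its counts there, 597, lay between the 570 and 705 of the other control replicates. On CPM its 15/5 ratio was 1.59, the lowest of the 142, and not 2.60. Its 25/15 ratio turned round as well, with 0.702 in FPKM and 1.16 on CPM, and its log2 fold change on counts was 0.22 (95% interval 0.01 to 0.43) at 25 against 15 psu. Cluster-8005.115596, with 1980 nucleotides in that library against 3284 to 3303 at 5 and 25 psu and in control replicate 1, had a 15/5 ratio of 1.65 on CPM and 2.13 in FPKM.

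On counts, the ratios near the limits did not all hold. With CPM in place of FPKM the 3 libraries at 5 psu lay below the other 6 for all 142, and 124 met every condition. CPM and FPKM come from the same counts in the same libraries, so that separation was largely set by the choice. Of the other 18, 13 had a 15/5 ratio under 2 and 6 a 25/15 ratio of at least 1.5, with Cluster-8005.71705 in both counts. The median 15/5 ratio was 2.24 on CPM.

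**Figure D3:**
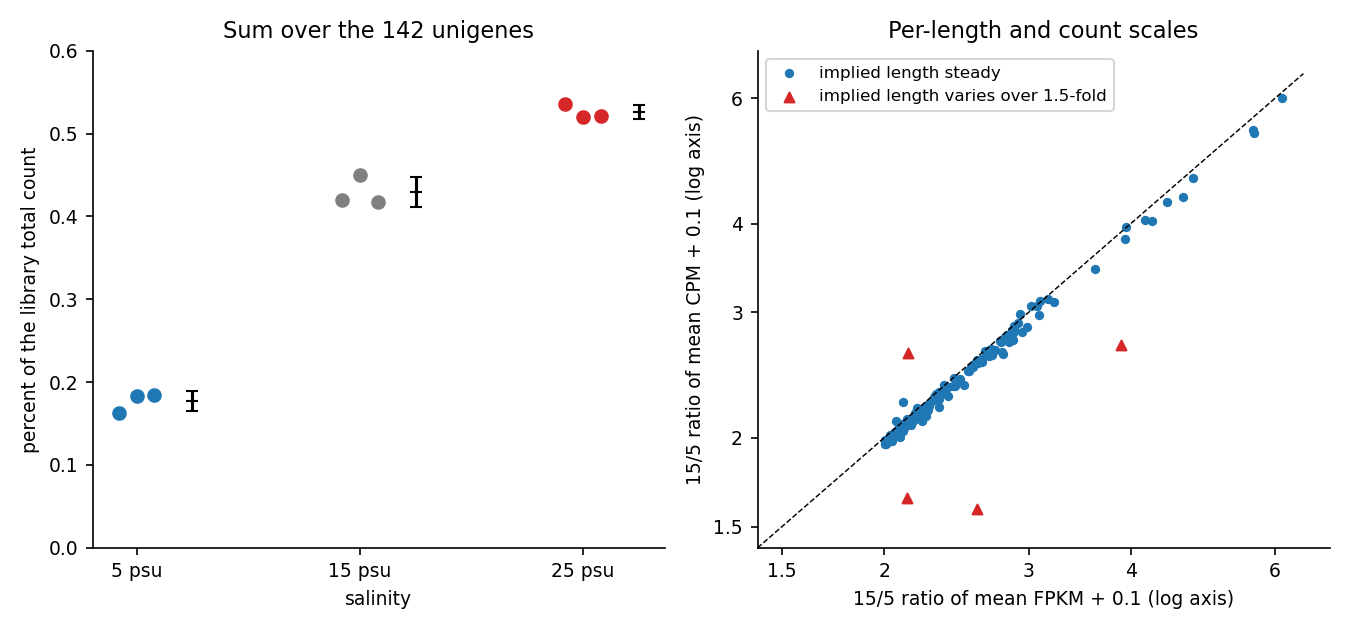
Left: percent of each library's total count held by the 142 unigenes, with points for libraries and the mean ± SD (n = 3) beside them, 0.177% at 5 psu, 0.429% at 15 psu and 0.526% at 25 psu. Right: 15/5 ratio in CPM against that in FPKM on log axes, where the dashed line marks equal ratios and triangles mark the 4 unigenes whose implied length differed over 1.5-fold between libraries, which stand away from the line.

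The ratio of 25 to 15 psu, limited by the choice to under 1.5-fold, lay more often above 1 than below it. The mean at 25 psu was above that at 15 psu for 102 of the 142, and the median 25/15 ratio was 1.17, where it was 1.005 over eligible unigenes with 51.0% above. All 3 libraries at 25 psu lay above all 3 at 15 psu for 56 unigenes (39.4%) and below them for 10 (7.04%). The same held for 21.0% and 15.8% of the eligible unigenes. On CPM, 55 of the 142 and 22.7% of eligible unigenes had all libraries at 25 psu above those at 15 psu. The upward limit cut into this distribution: of 267 eligible unigenes that were separated at 5 psu and reached the 15/5 ratio of 2, 124 were left out for a 25/15 ratio of at least 1.5 and 1 for a ratio at or under 0.667. Without limits on 25/15, 226 of the 267 had a higher mean at 25 than at 15 psu. The separation itself requires every library at 25 psu to lie above those at 5 psu, which removes low 25/15 ratios. The excess above 1, in the 267 and in the 142, is thus partly set by the choice.

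EdgeR called 7 of the 142 (4.93%) higher at 25 than at 15 psu (adjusted p under 0.05) and none lower, where it called 1.67% of all tested unigenes higher, 5.13% of tested eligible ones higher, and 0.679% and 1.31% lower. The share called higher is thus near that of eligible unigenes. At an unadjusted p under 0.05, 48 of the 142 (33.8%) and 25.3% of tested eligible unigenes passed in either direction. DESeq2 called 18 (12.7%) higher and none lower, where it called 8.43% of eligible unigenes higher and 2.40% lower. The choice limited this contrast, so these counts are a description. The 7 were Cluster-8005.111464, Cluster-8005.112309, Cluster-8005.116573, Cluster-8005.126262, Cluster-8005.53597, Cluster-8005.67551 and Cluster-8005.71705, with log2 fold changes from 0.52 to 0.64. Dropping each 5 psu library in turn, by replicate number, left 8, 6 and 14 of the 142 called higher. Eligible unigenes called higher were then 884, 611 and 1104 of 15041. Dropping a control library left 3, 5 and 2 of the 142, beside 446, 403 and 324 eligible ones. Dropping a 25 psu library left 4, 2 and 3, beside 450, 370 and 421. Both numbers were highest without replicate 3 at 5 psu, so the swings are not shown to be particular to the 142. A length offset per library, read from count over FPKM, gave a count of 0 when added as a covariate in edgeR. That fit called only 107 of 15041 tested eligible unigenes higher and 10 lower, so the 0 is nothing particular to the 142. At an unadjusted p under 0.05, 33 of the 142 and 14.8% of tested eligible unigenes passed in it. That offset averaged -3.16 nucleotides at 25 psu and 6.89 at 15 psu, and its part in the result was not tested.

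A call that is missing does not show equal levels at 25 and 15 psu. The 95% interval of the log2 fold change lay within 1.5-fold in both directions for 59 of the 142 (41.5%), and for 55.7% of tested eligible unigenes. It lay above 0 for 50 (35.2%) and below 0 for 4 (2.82%), where it did so for 19.1% and 11.2% of tested eligible unigenes. These intervals use the normal quantile and are somewhat too narrow. By edgeR's own test 48 of the 142 and 25.3% of tested eligible unigenes had an unadjusted p under 0.05. The median SE was 0.16.

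**Figure D4:**
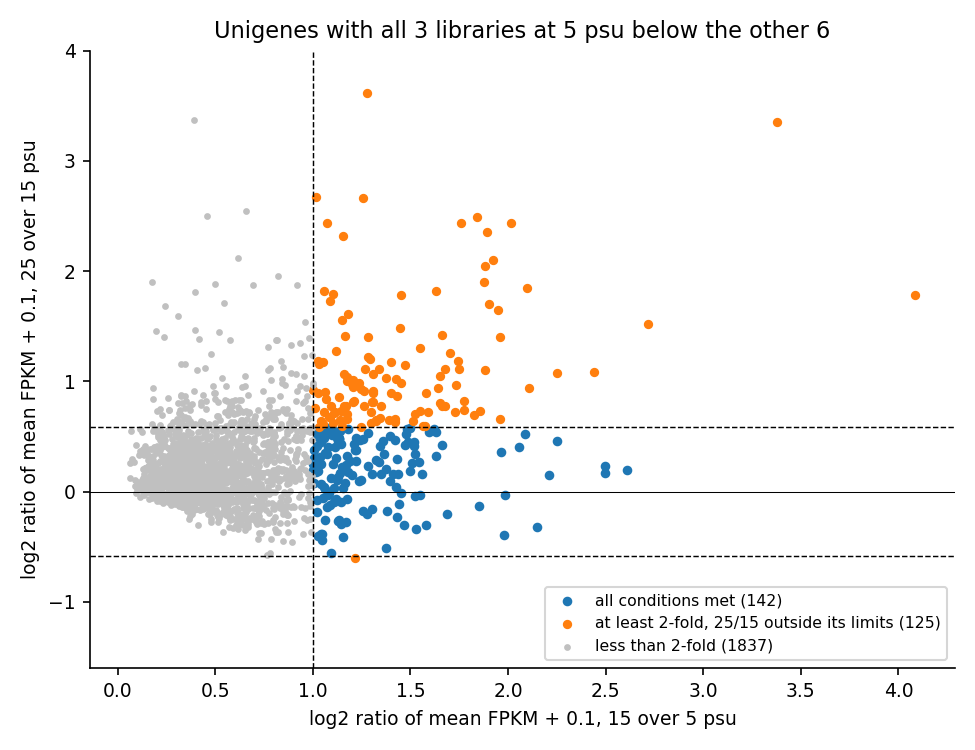
Log2 ratios of group means for the 2104 eligible unigenes whose 3 libraries at 5 psu lay below the other 6, 15 over 5 psu on the x axis and 25 over 15 psu on the y axis, with dashed lines at the limits of the choice. The 142 unigenes (blue) sit at the dense edge of the 2-fold limit, 124 others lie above the upper limit of 25/15, and 1 lies below the lower one.

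Unigenes next to a limit differed little across it. Just inside the 15/5 ratio of 2 were Cluster-8005.114771, Cluster-8005.110492 and Cluster-8005.72918 with 2.004, 2.005 and 2.006, and just outside were Cluster-8005.108673, Cluster-8005.111495 and Cluster-8005.96652 with 1.997, 1.996 and 1.995. Cluster-8005.114771, for example, held 7.26, 4.50 and 10.3 FPKM at 5 psu, 15.5, 13.3 and 15.6 FPKM at 15 psu, and 17.1, 12.1 and 23.7 FPKM at 25 psu, with wide spreads at 5 and 25 psu. Nearest the upper limit of 25/15 from inside were Cluster-8005.55715 and Cluster-8005.86692 with 1.49 each and Cluster-8005.112309 with 1.48. The nearest outside was Cluster-8005.92934 with 1.50. It averaged 6.41 ± 1.76 FPKM at 5 psu, 15.4 ± 3.14 FPKM at 15 psu and 23.1 ± 1.36 FPKM at 25 psu (SD, n = 3 each).

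Nearest the lower limit were Cluster-8005.115596 (0.680), Cluster-8005.121552 (0.702) and Cluster-8005.110185 (0.735), of which the first and second have the changing lengths described above, and the second lies above 1 on counts. Cluster-8005.110185 held 7.20, 8.83 and 8.11 FPKM at 5 psu, 20.5, 17.3 and 12.5 FPKM at 15 psu, and 12.7, 11.6 and 12.5 FPKM at 25 psu. Its replicate 3 at 15 psu lay among the libraries at 25 psu, and its log2 fold change at 25 against 15 psu was -0.42 (95% interval -0.75 to -0.08).

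The gap between 5 psu and the rest also varied. The lowest of the 6 libraries at 15 and 25 psu was a median of 1.72 times the highest at 5 psu, at least 1.5 times for 104 unigenes, and 5.31 times at most. The smallest gap was that of Cluster-8005.80250, at 10.2 FPKM in replicate 2 at 5 psu and 11.2 FPKM in control replicate 3. Coefficients of variation at 5 psu had a median of 19.4% for the 142 and 14.5% for eligible unigenes, and at 15 psu 10.3% and 9.66%, on lower counts at 5 psu for the 142 by their choice.

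Within 5 psu, replicate 1 was most often the lowest library. It was the lowest of the 3 for 75 of the 142, against 32 for replicate 2 and 35 for replicate 3. Replicate 3 was the highest for 63, replicate 2 for 53 and replicate 1 for 26. The median log2 distance from the group mean was -0.10, 0.04 and 0.07 in replicates 1, 2 and 3 for the 142, and -0.05, 0.02 and 0.02 for all eligible unigenes.

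Counts of 0 occurred for 2 of the 142, both in replicate 1 at 5 psu. Cluster-8005.140017 held 0, 151.4 and 119.6 counts at 5 psu, and from 218.4 to 310.8 in each library at 15 and 25 psu. Cluster-8005.82408 held 0, 12.5 and 49 counts at 5 psu, and from 49 to 89 in each other library. Such a 0 allows up to 3 counts, for counting error only, so in Cluster-8005.140017 replicate 1 stood apart from its fellows by more than counting error.

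The value in a library left out of the choice was not used by it, but the libraries it is compared with were. Those were chosen to stand apart, which favours high shares, and the eligible unigenes are no matched baseline. The shares are thus a description. Each library was left out in turn, the conditions were applied to the other 8, and the library left out was read. Without replicate 1 at 5 psu, 143 unigenes were chosen, and for 138 of them (96.5%) that library lay below all 6 at 15 and 25 psu. The share was 94.8% of 172 for replicate 2 and 85.4% of 199 for replicate 3. Over all eligible unigenes it was 36.1, 26.1 and 30.2%.

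The size of the fall was smaller in replicate 3 when it was left out. At least a 2-fold difference from the 15 psu mean was seen in the library left out for 74.8% of the unigenes chosen without replicate 1, 55.8% without replicate 2 and 48.2% without replicate 3, where 5.21, 2.67 and 3.18% of eligible unigenes showed it. The median log2 ratio to 15 psu was -1.29, -1.03 and -0.96 in replicates 1, 2 and 3 when left out, against -1.18, -1.20 and -1.24 in the pairs of libraries at 5 psu that chose the unigenes.

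Libraries at 15 and 25 psu gave like results. When left out, control replicates 1, 2 and 3 lay above all 3 libraries at 5 psu for 96.7, 100 and 99.3% of the unigenes chosen without them, where 31.1, 30.8 and 33.2% of eligible unigenes did. Replicates 1, 2 and 3 at 25 psu did so for 97.9, 99.2 and 97.8%, where 37.5, 33.7 and 35.1% of eligible unigenes did. The closeness of 25 to 15 psu was about as common as in the background. A library at 25 psu that was left out lay within 1.5-fold of the 15 psu mean for 81.0, 88.3 and 85.1% of the chosen unigenes, and for 86.0, 87.4 and 88.1% of all eligible ones. Of the chosen, 20, 10 and 14 lay above that range in replicates 1, 2 and 3, and 7, 5 and 6 below it.

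**Figure D5:**
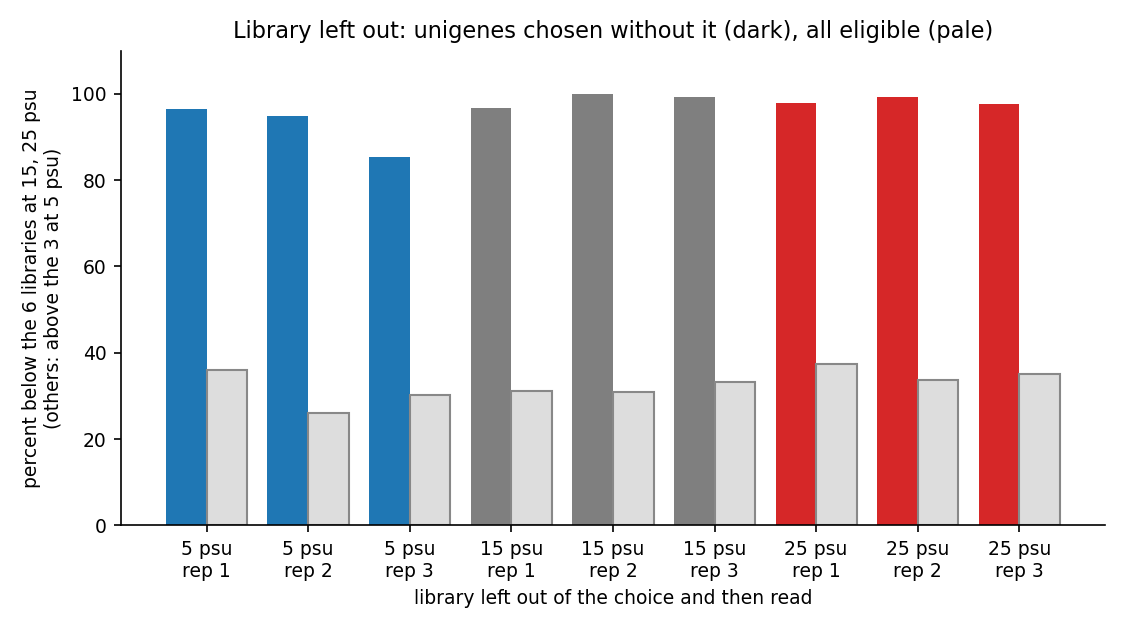
Percent of unigenes for which the library left out of the choice lay below all 6 libraries at 15 and 25 psu (first 3 pairs of bars) or above all 3 libraries at 5 psu (other pairs), for unigenes chosen without it (dark bars, blue at 5 psu, grey at 15 psu and red at 25 psu) and for all eligible unigenes (pale bars). The dark bars run from 85.4 to 100%, with replicate 3 at 5 psu the lowest, and the pale bars from 26.1 to 37.5%.

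Length, abundance and whole counts are given as a description, since the choice set minimums for FPKM and counts, from which the implied length is computed. All 142 unigenes lie in Cluster-8005, the largest assembly cluster, which also holds 99.9% of the eligible unigenes. The 142 were shorter, with a median implied effective length of 690 nucleotides against 1113 for eligible unigenes, and 19.7% against 9.73% were under 300 nucleotides. They were about as abundant, with a median of 11.2 and 10.5 FPKM. Counts were whole in all 9 libraries for 33 of the 142 (23.2%), against 35.4% of eligible unigenes, so the counts of the other 109 include estimated shares of reads and are uncertain to that extent. Shares of the eligible unigenes that met the choice were 0.834% from 5 to 10 FPKM, 1.002% from 10 to 30, 0.957% from 30 to 100 and 1.50% from 100 FPKM, where 12 of 799 did.

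Some of the 142 carry adjacent numbers in Cluster-8005, which was looked at after the values were seen. There are 6 such pairs, and how the numbers were given is not stated in the sources used here. No such count over eligible unigenes is given, so 6 is not shown to be many or few. In Cluster-8005.128075 and Cluster-8005.128076, levels averaged 2.01 ± 0.415 and 7.28 ± 4.08 FPKM at 5 psu, 7.54 ± 2.03 and 32.6 ± 6.51 FPKM at 15 psu, and 6.89 ± 0.450 and 26.1 ± 6.09 FPKM at 25 psu (SD, n = 3 each). Their 25/15 ratios were 0.914 and 0.7996. Cluster-8005.116573 and Cluster-8005.116574 had 15/5 ratios of 3.896 and 3.10 in FPKM, and 25/15 ratios of 1.28 and 1.46. The 25/15 ratios were 1.42 and 1.33 in Cluster-8005.67551 and Cluster-8005.67552, and 1.35 and 1.11 in Cluster-8005.58492 and Cluster-8005.58493. They were 1.26 and 1.01 in Cluster-8005.117115 and Cluster-8005.117116, and 1.15 and 0.994 in Cluster-8005.102287 and Cluster-8005.102288, so members of a pair could differ at 25 psu.

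Unigenes numbered 1 above or below one of the 142, and not chosen themselves, were also read. Of 58 that were eligible and tested, edgeR called 12 lower (20.7%) and 1 higher at 5 against 15 psu, where 4.67% of tested eligible unigenes were called lower. Their median log2 fold change was -0.08, against -0.00, and the libraries at 5 psu lay below the other 6 in 25.9% of them, against 14.0% of eligible unigenes. Whether they share reads with the 142 was not tested.

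Unigenes outside the 142 with a profile most like theirs are named next. Likeness was Pearson's r over the 9 libraries, between log2(FPKM + 0.1) of a unigene and the mean over the 142. The 5 likest eligible unigenes had r of 0.994 to 0.995 and 15/5 ratios of 1.31 to 1.88. Cluster-8005.111919 held 1259, 1391 and 1409 FPKM at 5 psu, 2072, 2275 and 2287 FPKM at 15 psu, and 2323, 2310 and 2287 FPKM at 25 psu, at an implied length of 84.1 nucleotides. Cluster-8005.112880 came closest to the 2-fold limit, with 6.45, 6.66 and 7.41 FPKM at 5 psu, 12.2, 13.1 and 13.6 FPKM at 15 psu, and 15.0, 13.8 and 14.3 FPKM at 25 psu. All 5 showed the separation at 5 psu, and their 25/15 ratios were from 1.04 to 1.105, so by the conditions they could be outside the 142 only through a 15/5 ratio under 2.

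Patterns formed by the same conditions in other arrangements were of unequal size. The mirrored conditions, raised at 5 psu by at least 2-fold with 25 psu within 1.5-fold of 15 psu, were met by 168 eligible unigenes. With 25 and 5 psu exchanged, 48 were lowered at 25 psu and 131 raised. The difference between these counts was not tested, and the comparisons share the 3 control libraries.

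EdgeR's comparison of 25 with 5 psu called 132 of the 142 higher at 25 psu and none lower, where it called 6.48% of all tested and 15.3% of tested eligible unigenes higher, and 4.63% and 7.85% lower. The choice used this contrast too. The median log2 fold change was 1.50, and values ran from 0.56 to 2.83.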

How the data were processed

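Per the labels' protocols, Trizol was used to isolate RNA and a NEBNext Ultra kit to build libraries. No strand setting is named, so reads from a transcript and its antisense partner are not separable. The authors deposited, per the file headers, an estimated count (expected count) and an FPKM value per unigene and library. The submitters' processing notes list RSEM and Bowtie2; the assembly is not given in the sources used here. In each library 25.0 to 27.6% of counts were not whole (tolerance 0.005).

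The conditions of the choice were applied to the FPKM as deposited. Counts were rounded, filtered with edgeR's filterByExpr (minimum 10), scaled by TMM and fitted in 1 quasi-likelihood model of 3 groups over 9 libraries (edgeR 4.0.16, R 4.3.3), with Benjamini-Hochberg adjustment over 71915 unigenes at 0.05. The script was tested on simulated data. Standard errors are the log2 fold change over the square root of F, and 95% intervals use the normal quantile. Implied lengths are count over FPKM and library total, medians over libraries with at least 10 counts, and the length offset of a library is its median difference over the 946 unigenes that average 2000 counts or more.

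The 142 unigenes, the comparisons and the alternatives were chosen with earlier results of these data known. Named unigenes are the 10 with the largest 15/5 ratio, the 8 most abundant, the 5 with the smallest coefficient of variation at 5 psu, the 3 nearest each limit, and the 5 likest others; those named for another reason were picked after their values were seen. Alternatives used DESeq2 1.42.0 and limma 3.58.1, other scalings, filters and limits, a replicate block, the length offset and leaving out each library. Replicate numbers recur across the groups, with no statement of what they mark.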

Additional observations from a re-analysis of the deposited data

How the results depend on the processing

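The 142 unigenes became 352 and 82 with a mean FPKM minimum of 1 and 10, 626 and 18 with a 15/5 ratio of at least 1.5 and 3, 79 with a tighter limit on 25/15, and, chosen after the data were seen, 266 with no upper limit on 25/15; looser limits admit more by construction. Leaving out 1 library gave 128 to 199 unigenes, and 68 of the 142 were chosen in all 9 such selections. With CPM 131 were chosen, 124 of them among the 142, and with FPKM rescaled by DESeq2 size factors 113, nearly all of them among the 142. The share of unigenes chosen without a library at 5 psu for which that library lay below the other 6 was 91.6% over the 3 libraries, 84.5% with a 15/5 ratio of at least 1.5 and 92.4% with one of 3. Over all alternatives, calls among the 142 at 5 against 15 psu ran from 96 to 134. At 25 against 5 psu they ran from 115 to 137. Of 14380 to 15060 tested eligible unigenes, 370 to 1084 were called lower in the first comparison and 1339 to 2495 higher in the second. The choice used both contrasts, so these counts are a description. The 7 calls at 25 against 15 psu were 11 with a stricter filter, 18 with DESeq2 and 12 with limma-voom. They were 15 with the libraries at 5 psu left out. Eligible unigenes called higher went from 771 to 921, 1267, 881 and 1079 in these settings in turn. With the length offset as a covariate the count was 0 (edgeR, 33 at an unadjusted p under 0.05), and 107 over eligible unigenes. With 1 library left out it was 2 to 14, and 324 to 1104 over eligible unigenes. The cause was not tested. With a replicate block the calls were 111, 6 and 130 in these comparisons of 5 with 15, 25 with 15 and 25 with 5 psu. Eligible unigenes called in the same direction then numbered 594, 640 and 2194. Libraries with the same number had deviations from their group means that correlated by -0.017 to 0.106. Of 9 such pairs 1 exceeded 0.1, and no pairing was assumed. The share of counts held by the 142 at 5 psu was 0.413 of that at 15 psu, and 0.404 to 0.429 with 1 library left out. No log2 fold change at 5 against 15 psu of the 38 named unigenes changed sign among 758 values, each for a unigene in an alternative setting. All 38 had the 3 libraries at 5 psu below the other 6, so how they were picked largely set that outcome, and it supports nothing. Of these 758 values, 37 lost and 10 gained a call. Mates in assembly clusters of at most 50 unigenes could not be given, since all 142 lie in 1 larger cluster. Depth limits the fold changes of unigenes with few counts at 5 psu, where 68 of the 142 held at least 300 counts in 3 libraries.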
